A study of Mus musculus with 10 samples.

Results

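The genes described here are 9 complement components and regulators, C1qa, C1qb, C1qc, C1s1, C3, C4b, Cfd, Cfb and Serping1, read by their symbols from gene tables that held 55401 genes. All 9 were found in every table, and 8 of them reached the mean level required for testing. RNA from the left ventricle (LV) was sequenced in 5 mice with neonatal ascending aorta constriction (nAAC) and in 5 sham-operated mice, with 1 library per mouse. All 10 mice were of WT genotype and 4 weeks old, and both operations were done on newborns, so the sham mice share the surgery without the constriction. The labels do not give the sex of the mice. Xist, the RNA that female cells make from their silenced X chromosome, was above 3 FPKM in 4 nAAC mice (14.8 to 17.9) and 2 sham mice (3.70 and 10.6) and near 0 in the others, so it was not balanced between the groups, and it was used as a covariate in an alternative fit. The deposited values are normalized, so read counts are not known, and depth could only be estimated, at 4.86 to 6.82 gigabases in the nAAC and 5.06 to 5.24 in the sham libraries. Each library holds all cells of an LV sample. In such bulk tissue, fewer cells of a type and less RNA per cell cannot be told apart, and the same is true of more cells and more RNA per cell.

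Complement is a cascade of secreted proteins that marks surfaces for uptake and lysis. In the classical pathway the recognition molecule C1q, built from the A, B and C chains, binds antibody or altered cell surfaces, and the attached proteases C1r and C1s then cleave C4 and C2 to form an enzyme that splits C3. In the alternative pathway, factor D (Cfd, also called adipsin) cleaves factor B (Cfb) bound to C3b, which amplifies C3 cleavage. C1 inhibitor (Serping1) is a serine protease inhibitor that inactivates C1r, C1s and the lectin pathway proteases. Most circulating complement is made in the liver, C1q is made mainly by tissue macrophages, and adipocytes are the classic source of adipsin.

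The C1q genes lie side by side on the minus strand of chromosome 4 of mm10, within 18.7 kb (chr4:136880129-136898803). Their products are assembled through collagen-like stems in which glycine recurs at a fixed spacing. The stretches below come from the GENCODE M21 protein-coding transcripts and are shown because they make this shared design visible: capitals mark the glycine codons (GGN), and each stretch is the first 108 bases of the longest uninterrupted run of such triplets in the coding sequence.
C1qa: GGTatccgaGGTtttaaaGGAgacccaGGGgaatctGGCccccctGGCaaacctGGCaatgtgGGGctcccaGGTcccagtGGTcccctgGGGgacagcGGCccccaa
C1qb: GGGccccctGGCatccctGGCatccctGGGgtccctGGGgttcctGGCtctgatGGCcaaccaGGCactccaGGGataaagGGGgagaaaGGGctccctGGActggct
C1qc: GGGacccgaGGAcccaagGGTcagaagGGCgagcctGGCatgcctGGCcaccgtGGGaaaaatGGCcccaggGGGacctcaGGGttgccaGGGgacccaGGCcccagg
The run was 16 triplets long in C1qa, 29 in C1qb and 16 in C1qc. In 100-base windows of their transcripts, 0% were shared with any other gene, so sequence of that length identifies each chain.

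Levels are given as FPKM, the fragments of a gene divided by its length in kilobases and by the size of the library, so that levels of different genes can be set side by side. A gene was said to rise or fall when its adjusted p was below 0.05 in limma on log2(FPKM + 1), and it was a DEG when its absolute log2 FC was also above 1. Of the 8 tested complement genes, 7 rose in nAAC and 0 fell. Over all 11867 tested genes, 27.1% rose and 4.6% fell, 31.7% in either direction. The number of DEGs was 2, both up (C1qa and C4b), where 5.01% of all genes were DEGs that rose and 0.893% DEGs that fell. C4b and Cfb averaged below an FPKM of 1 in sham mice and reached the test through their nAAC values. The median log2 FC of the 8 genes was 0.91, against 0.22 for all tested genes. Of all calls 85.5% were up, and 52.2% after median-ratio scaling, which brings the median log2 FC of all genes close to 0. Under that scaling 5 of the 8 genes were still called, all of them up, where 1563 of all 11867 genes rose and 1431 fell.

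Serping1 had the highest level of the 9 genes in each of the 10 mice. In nAAC mice the mean level was 81.1 FPKM for Serping1, followed by 36.8 for C1qb, 35.8 for C1qa and 28.5 for C1qc. C3 (19.8) and C1s1 (10.9) came next, then C4b (6.79) and Cfb (1.95), with Cfd last. The order of the means was the same in sham mice from Serping1 to C4b, at 42.0 for Serping1, 20.0 for C1qb, 16.2 for C1qa, 15.5 for C1qc, 9.15 for C3, 6.35 for C1s1 and 0.967 for C4b. The means of C1qa and C1qc lay within 1 SD of that of C1qb in both groups. C3 and C1s1 also changed places between mice, with C1s1 above C3 in nAAC replicate 4 and sham replicate 2. Cfb (0.590), C4b and Cfd were not in a fixed order in sham mice.

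**Figure D1:**
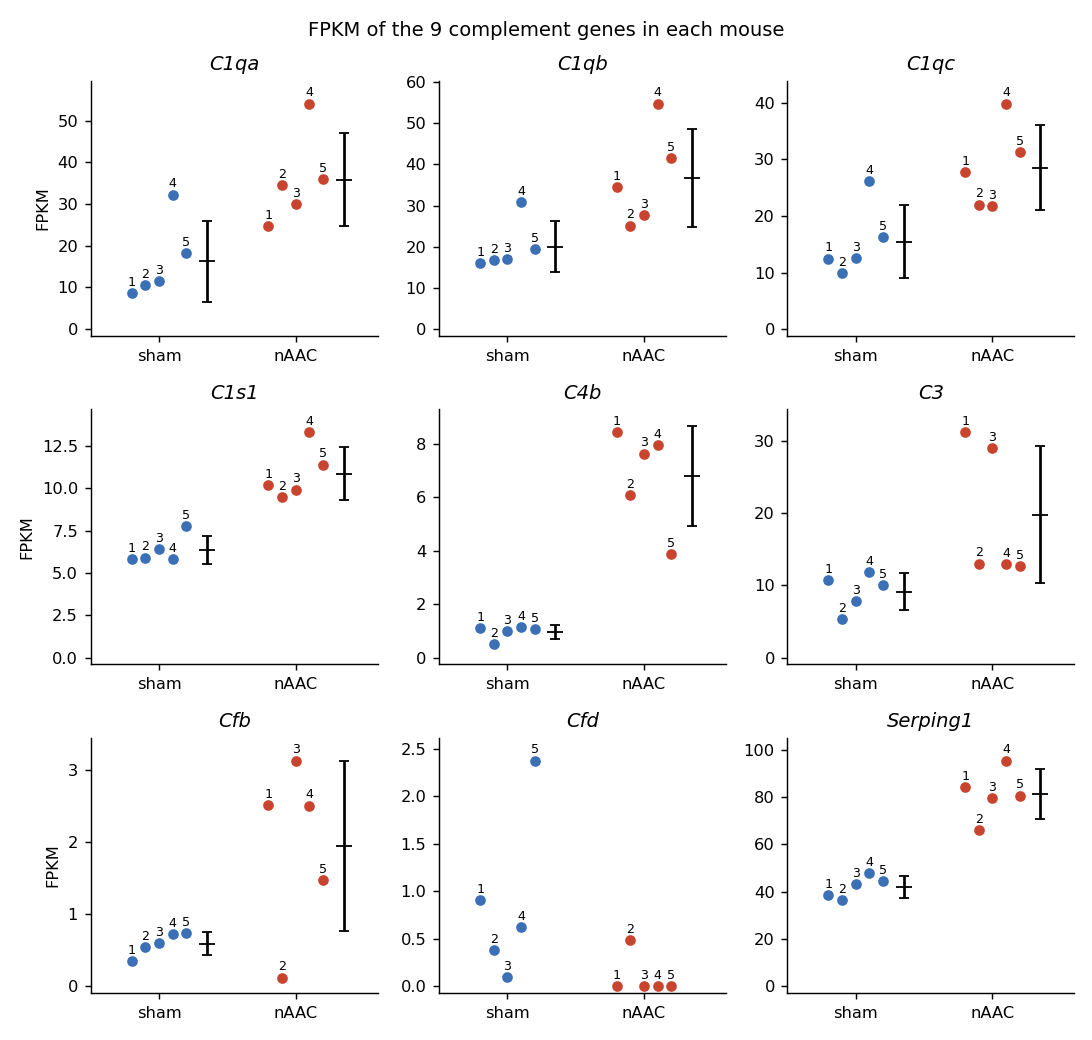
FPKM (linear axes starting at 0) of the 9 complement genes in sham (blue) and nAAC (red) mice. Each point is a mouse with its replicate number, and bars are the mean ± SD of 5 mice, left out for Cfd, which was listed at 0 in 4 nAAC mice. The groups do not overlap for C1s1, C4b, C3 and Serping1, where 18.9% of all tested genes have every nAAC mouse above every sham mouse. Sham replicate 4 reaches into the nAAC range of the C1q chains, and nAAC replicate 2 is the lowest of all mice for Cfb.

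The 3 genes of the recognition molecule C1q all rose in nAAC, C1qa with the largest log2 FC. C1qa measured 24.6, 34.5, 30.1, 54.1 and 36.0 FPKM in nAAC replicates 1 to 5 and 8.64, 10.6, 11.5, 32.3 and 18.2 in sham replicates 1 to 5. Sham replicate 4 was the highest sham mouse and nAAC replicate 4 the highest nAAC mouse, and the groups overlapped through sham replicate 4 alone. The log2 FC of C1qa was 1.20 ± 0.30 (SE, n = 5 per group, adjusted p = 0.00947), and an exact two-sided permutation test gave p = 0.024, where 0.0079 is the smallest value 5 against 5 mice allow.

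C1qb measured 34.5, 25.2, 27.7, 54.8 and 41.6 FPKM in the nAAC mice and 16.0, 16.8, 17.0, 30.8 and 19.5 in the sham mice. Again 3 of 5 nAAC mice lay above the highest sham mouse and 4 of 5 sham mice below the lowest nAAC mouse. Its log2 FC was 0.83 ± 0.22 (SE, adjusted p = 0.0130, exact permutation p = 0.024). C1qc measured 27.7, 22.0, 21.7, 39.8 and 31.3 FPKM in the nAAC mice and 12.5, 9.88, 12.5, 26.2 and 16.2 in the sham mice, with the same single sham mouse inside the nAAC range. Its log2 FC was 0.88 ± 0.24 (SE, adjusted p = 0.0127, exact permutation p = 0.024).

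The proportions of the chains within a mouse were compared because C1q needs all of them. The ratio of C1qc to C1qb averaged 0.788 ± 0.057 in nAAC and 0.757 ± 0.104 in sham mice (SD, n = 5). The ratio of C1qb to C1qa was 1.04 ± 0.25 in nAAC and 1.39 ± 0.37 in sham mice, a difference of -0.40 on the log2 scale (exact permutation p = 0.14, adjusted p = 0.21 over 3 ratios). The ratio of C1qc to C1qa was 0.818 ± 0.190 and 1.03 ± 0.25, a log2 difference of -0.34 (exact permutation p = 0.13, adjusted p = 0.21). No difference in the ratios passed the test, and with 5 mice per group this does not show that the proportions were equal.

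**Figure D2:**
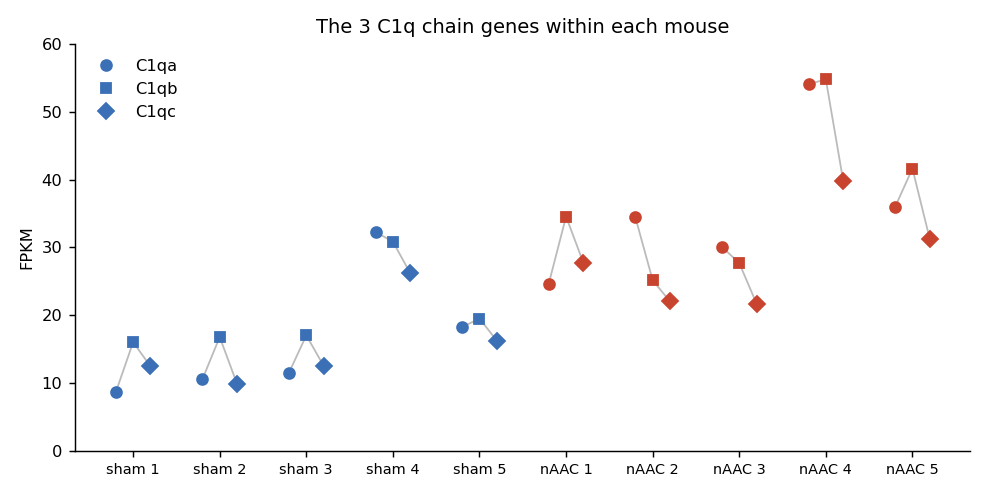
FPKM (vertical axis, linear) of C1qa (circles), C1qb (squares) and C1qc (diamonds) within each sham (blue) and nAAC (red) mouse, joined by a line per mouse. The chains lie between 8.64 and 16.0 FPKM in sham replicate 1 and between 39.8 and 54.8 in nAAC replicate 4, and C1qa is the lowest chain in nAAC replicate 1 and the highest in nAAC replicate 2.

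Sham replicates 4 and 5 also differed from the other sham mice in their share of mitochondrial transcripts. Transcripts of the mitochondrial genome made up 33.7% of TPM in sham replicate 4 and 38.3% in sham replicate 5. In sham replicates 1 to 3 they made up 46.5% to 49.8%. The mean was 43.4% ± 7.05 in sham and 36.1% ± 2.60 in nAAC mice (SD, n = 5). Sham replicates 4 and 5 were also the sham mice with Xist above 3 FPKM. Without sham replicate 4 the log2 FC was 1.48 for C1qa, 0.99 for C1qb and 1.08 for C1qc, and the number of DEGs among the 8 genes was 4. Over all tested genes 665 were then DEGs that rose, in place of 595. The calls of C1qa, C1qb and C1qc were lost with Xist as a covariate, where their log2 FC was 0.88, 0.52 and 0.56.

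The macrophage markers were set beside the C1q chains. Of 16 markers 15 were tested, of which Laptm5, Tyrobp and Fcer1g rose and 0 fell, with a median log2 FC of 0.32. Over all tested genes 27.1% rose and 4.6% fell, with a median log2 FC of 0.22. None of the markers was at 0 in all mice. Csf1r, the macrophage growth factor receptor, measured 9.99, 5.78, 6.48, 14.1 and 10.5 FPKM in the nAAC mice and 7.11, 8.61, 7.36, 8.36 and 9.71 in the sham mice. The summed FPKM of the markers was 124 to 254 in nAAC and 101 to 189 in sham mice. It was highest in nAAC replicates 4 and 5 and, among sham mice, in replicate 4, which were also the highest mice of each group for C1qb. Lyz2 had the largest part in this sum, at 66.1 to 134 FPKM in nAAC and 53.8 to 118 in sham mice. In sham replicate 4, Lyz2, Tyrobp and Fcer1g were the highest of the sham mice, while Mertk (1.07) and Cx3cr1 (0.791) were the lowest. Relative to the mean log2 value of the tested macrophage markers in the same mouse, the log2 FC of C1qb was 0.49 and that of C1qc 0.54, both no longer called, and C1qa remained called. The share of the difference that goes with the macrophage markers was not tested.

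The protease C1s1, which cleaves C4 and C2, lies on chromosome 6 (chr6:124530345-124542359, minus strand). It measured 10.2, 9.46, 9.93, 13.3 and 11.4 FPKM in the nAAC mice and 5.83, 5.92, 6.42, 5.81 and 7.79 in the sham mice. The 5 nAAC values were all higher than the 5 sham values, as they were in 18.9% of all tested genes, while the opposite order was seen in 3.46%. Its log2 FC was 0.69 ± 0.12 (SE, adjusted p = 9.50e-04, exact permutation p = 0.0079). The C1s1 transcript shares 7.9% of its 100-base windows with its copy C1s2, which was listed at 0.263 FPKM at most. An antisense gene model that overlaps C1s1, Gm16567, was at 0 in every mouse.

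C4b encodes complement C4, the protein that C1s cleaves first, and had the largest log2 FC of the 9 genes. The gene lies on chromosome 17 (chr17:34728380-34743882, minus strand), about 112 kb from Cfb. It measured 8.44, 6.07, 7.64, 7.96 and 3.86 FPKM in the nAAC mice and 1.12, 0.507, 1.003, 1.15 and 1.05 in the sham mice. The lowest nAAC mouse, replicate 5, was still above every sham mouse, an order seen in 18.9% of all tested genes. The log2 FC was 1.96 ± 0.18 (SE, adjusted p = 4.91e-06, exact permutation p = 0.0079), and the mean FPKM was 7.03-fold that of sham mice. The mean of C4b in sham mice was below the level for testing, which it reached through its nAAC values. The fold therefore rests on a low sham level. It ranked 93 by log2 FC among the 11867 genes. It passed the test in all 15 other settings that were run and whichever mouse was left out, with a log2 FC between 1.31 and 2.69.

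C4b has a close copy, C4a, which could take part of its reads. The coding sequence of C4b and the longest C4a transcript in GENCODE M21 were 96.1% identical over 5207 aligned bases, with 201 mismatches. Of the 100-base windows of C4b, 16.5% were also in C4a. The 60 bases with the most mismatches are shown, since reads over such stretches can tell the copies apart: capitals mark the 13 differing bases, and the window covers bases 2705 to 2764 of the C4b coding sequence.
C4b: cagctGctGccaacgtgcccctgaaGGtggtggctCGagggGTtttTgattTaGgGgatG
C4a: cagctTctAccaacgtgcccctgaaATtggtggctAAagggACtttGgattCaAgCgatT
C4a was listed at 0.254, 0.269, 0.303, 0.462 and 0.183 FPKM in the nAAC mice and at no more than 0.155 in the sham mice. With both copies summed, an alternative chosen after the data were seen, the log2 FC was 1.98.

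C3, on which all pathways converge, lies on chromosome 17 (chr17:57203970-57228136, minus strand). It measured 31.2, 13.0, 29.0, 12.9 and 12.7 FPKM in the nAAC mice and 10.8, 5.30, 7.85, 11.8 and 10.04 in the sham mice. Replicates 1 and 3 were far above the other nAAC mice, which lay only just above the highest sham mouse. The groups did not overlap, with nAAC above sham as in 18.9% of all tested genes. The log2 FC was 0.96 ± 0.28 (SE, adjusted p = 0.0204, exact permutation p = 0.0079). The call was lost without nAAC replicate 3 (log2 FC 0.80, adjusted p = 0.0524) and under 9 of the other settings, among them median-ratio scaling (log2 FC 0.70, adjusted p = 0.101).

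The nAAC replicates with high C3 were also those with high markers of the epicardium and mesothelium, the cell layer that covers the heart. Msln, which encodes mesothelin, measured 9.26, 5.74, 9.38, 3.01 and 1.82 FPKM in the nAAC mice and 1.84 to 4.74 in the sham mice. The summed FPKM of the 9 markers was 26.6 and 30.3 in nAAC replicates 1 and 3, 10.6 to 16.8 in the other nAAC mice and 8.20 to 13.5 in the sham mice. Of these markers 7 were tested, Krt8 and Tbx18 rose and none was at 0 in all mice. Krt8 reached the level for testing through its nAAC values. With their mean log2 value as a covariate, an alternative chosen after the data were seen, the log2 FC of C3 was 0.16 (adjusted p = 0.596). The part of these cells in the level of C3 was not tested.

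**Figure D3:**
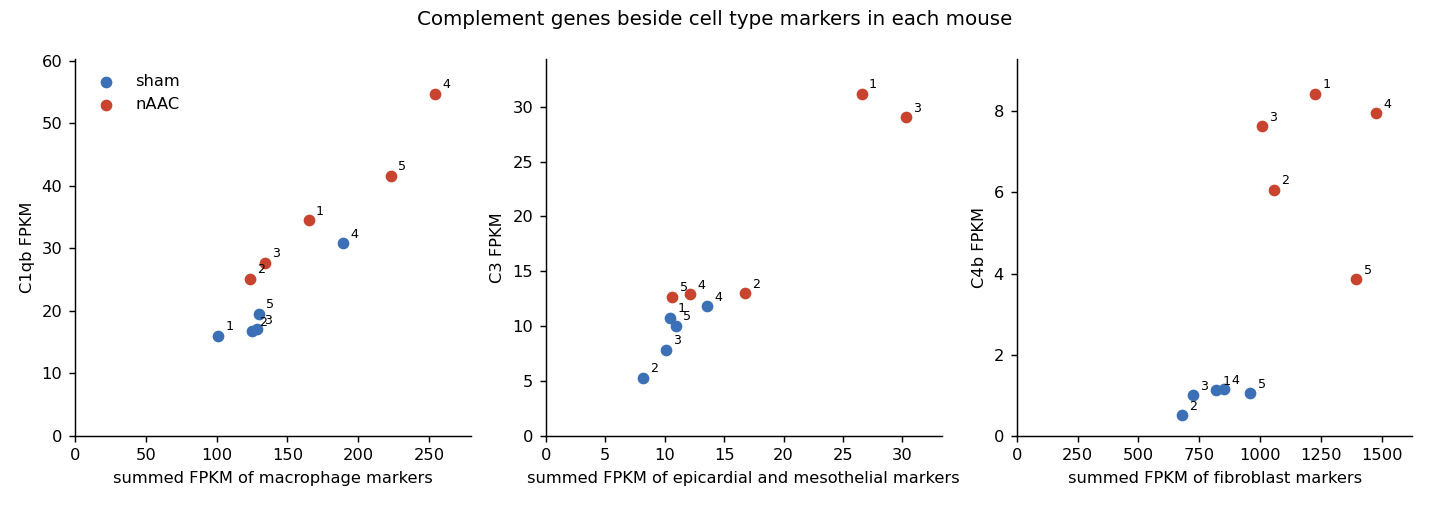
FPKM of C1qb, C3 and C4b (vertical axes) against the summed FPKM of macrophage, epicardial and mesothelial, and fibroblast markers (horizontal axes) in sham (blue) and nAAC (red) mice, numbered by replicate, on linear axes. C1qb follows the macrophage sum, in which Lyz2 has the largest part, within both groups with the nAAC mice higher. C3 is high in nAAC replicates 1 and 3, where the mesothelial sum is 26.6 and 30.3. C4b separates the groups, while the highest fibroblast sums, in nAAC replicates 4 and 5, go with 7.96 and 3.86 FPKM.

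Cfb, the protease precursor of the alternative pathway, was not called. It lies on chromosome 17 (chr17:34856374-34862518, minus strand). It measured 2.51, 0.119, 3.13, 2.50 and 1.47 FPKM in the nAAC mice and 0.350, 0.544, 0.593, 0.725 and 0.736 in the sham mice. The nAAC mice other than replicate 2 lay above every sham mouse, and replicate 2 was below all of them. The log2 FC was 0.76 ± 0.28 (SE, adjusted p = 0.0563, exact permutation p = 0.063), and without nAAC replicate 2 it was 1.08 (adjusted p = 3.15e-04). Replicate 2 was also the nAAC mouse with Xist near 0. Cfb was at 0.119 to 0.593 FPKM in the mice with Xist near 0 and at 0.725 to 3.13 in the others. With Xist as a covariate its log2 FC was 0.24 (adjusted p = 0.543). The part of sex in the level of Cfb was not tested.

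A second gene model on the same strand, Gm20547 (chr17:34856412-34882042), runs through Cfb and shares 81.0% of its 100-base windows. It was listed at 0.905 FPKM in nAAC replicate 2, the mouse with the lowest Cfb, at 0.151 in sham replicate 2 and at 0 in the other 8 mice. Summing both models, an alternative chosen after these values were seen, gave 2.51, 1.02, 3.13, 2.50 and 1.47 FPKM in the nAAC mice and 0.350 to 0.736 in the sham mice, with no overlap. The log2 FC of the sum was 0.91 ± 0.18 (SE, adjusted p = 0.00209, exact permutation p = 0.0079). How the reads of nAAC replicate 2 were divided between the models was not tested.

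Cfd, which encodes factor D, had the lowest mean level of the 9 genes in nAAC mice and was not tested, since its mean FPKM was below 1. It lies on chromosome 10 (chr10:79890853-79892655, plus strand). It was listed at 0 in 4 nAAC mice and at 0.489 FPKM in nAAC replicate 2. The sham mice measured 0.904, 0.382, 0.0968, 0.623 and 2.38 FPKM. All sham mice were above 0, and nAAC replicate 2 lay inside their range (exact permutation p = 0.024 for log2(FPKM + 1)). Without the filter on low values the log2 FC was -0.68 (SE 0.27, adjusted p = 0.141).

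Markers that define white fat were at or near 0. Adipoq, which encodes adiponectin, was at 0 in the 5 nAAC mice and between 0.079 and 0.308 FPKM in the sham mice. Plin1, a lipid droplet protein of adipocytes, was listed at 0.371 FPKM in sham replicate 5, the mouse with the most Cfd, and at 0.136 or less in the others. Lep was at 0 in 9 of the 10 mice. Fabp4, which endothelial cells also express, carried most of the summed level of the list, at 222 to 509 FPKM in nAAC and 322 to 636 in sham mice. Of the 12 adipocyte markers 4 were tested, Cidea rose and 0 fell, none was at 0 in all mice, and the summed FPKM was 254 to 547 in nAAC and 348 to 678 in sham mice. The part of fat tissue in the level of Cfd was not tested.

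Serping1 was the regulator in the set and also its most abundant transcript (chr2:84765387-84775444, minus strand). It measured 84.3, 65.8, 79.6, 95.4 and 80.5 FPKM in the nAAC mice and 38.4, 36.5, 43.2, 47.7 and 44.3 in the sham mice. The groups were far apart compared with their spread, with means of 81.1 ± 10.6 and 42.0 ± 4.56 (SD, n = 5). The log2 FC was 0.93 ± 0.13 (SE, adjusted p = 1.77e-04, exact permutation p = 0.0079). It stayed called whichever mouse was left out, with a log2 FC from 0.87 to 1.001.

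The fibroblast markers rose alongside these genes. All 12 were tested, 7 rose, 1 fell (Scara5) and the median log2 FC was 0.57. Their summed FPKM was 1008 to 1478 in nAAC and 679 to 960 in sham mice, without overlap, and none was at 0 in all mice. Pi16 measured 39.2 to 51.4 FPKM in nAAC and 8.10 to 14.8 in sham mice, while Pdgfra, the surface receptor that defines cardiac fibroblasts, measured 6.26 to 11.7 and 5.07 to 8.30. Relative to the mean log2 value of these markers in the same mouse, the log2 FC was 0.04 for C1s1, 0.29 for Serping1 and 0.32 for C3, none of them called, and 1.31 for C4b, which kept its call. This reference shifts every gene by the same amount within a mouse, and the median log2 FC of all tested genes was then -0.42. Against the macrophage markers, C1s1 (0.35), Serping1 (0.59) and C3 (0.62) were not called either, where the median of all genes was -0.12. Whether the rise goes with more fibroblasts was not tested.

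Other cell types were looked at by their markers. The neutrophil list had 2 of 9 genes tested and 0 called, at 3.53 to 12.7 summed FPKM in nAAC and 0.154 to 14.2 in sham mice, and Ly6g was at 0 in every mouse. The T and B cell list had 0 of 8 tested, at 0.935 to 1.996 and 0.613 to 1.42 FPKM. Of the hepatocyte list 2 of 8 were tested and Ahsg rose, at 17.2 to 30.1 and 11.3 to 18.4 summed FPKM, while Alb, the defining liver transcript, was at 0 in 8 of 10 mice and at most 0.396. The endothelial list had 2 of 8 genes rise (242 to 381 against 205 to 306 summed FPKM) and the mural list 5 of 8 (297 to 426 against 200 to 334), where 27.1% of all tested genes rose. Of 12 cardiomyocyte markers 2 rose and 2 fell. Among 4 tested atrial markers only Nppa rose, and 0 of 5 tested erythroid markers were called.

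The rest of the complement system was read from lists of 54 further genes, of which 19 were tested, 9 rose and 1 fell, with a median log2 FC of 0.46 and 3 DEGs. Relative to the fibroblast markers in the same mouse 2 rose and 7 fell, where 478 of all 11867 genes rose and 5964 fell. With TPM 10 rose and 0 fell, where 4973 of all genes rose and 344 fell. Among the C1 proteases and lectin pathway genes, 4 of 13 were tested and 3 rose. C1ra, the partner protease of C1s, measured 4.43 to 7.03 FPKM in nAAC and 2.39 to 3.40 in sham mice (log2 FC 0.68 ± 0.13, adjusted p = 0.00163). Masp1, a lectin pathway protease, had a log2 FC of 1.15 (adjusted p = 5.75e-05), and Colec12, a scavenger receptor with a collectin domain, one of 0.76 (adjusted p = 4.25e-04). C1rb measured 0.627 to 1.38 FPKM in nAAC and 0.301 to 0.674 in sham mice and was below the level for testing, as was C1s2.

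Of C2, C4a, C5 and the terminal components, 1 of 9 genes was tested. This was C7, a component of the membrane attack complex, at 0.939 to 2.65 FPKM in nAAC and 0.353 to 0.856 in sham mice (log2 FC 0.65, adjusted p = 0.00841). Its mean in sham mice was below the level for testing, which it reached through its nAAC values. C2, the partner of C4 in the classical pathway convertase, overlapped between the groups at 0.581 to 1.28 and 0.393 to 1.19 FPKM and was not tested. The model Gm20547 also overlaps C2 on the same strand. C2 was lowest in replicate 2 of each group, the mice in which Gm20547 was above 0. How reads were divided between C2 and Gm20547 was not tested. C8a, C8b and C9 were at 0 in every mouse.

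Among the fluid-phase regulators 2 of 4 tested genes rose, of 11 listed. Clu, which encodes clusterin, an inhibitor of the terminal complex and an extracellular chaperone, measured 733, 420, 687, 319 and 270 FPKM in the nAAC mice and 112, 79.0, 82.9, 177 and 175 in the sham mice (log2 FC 1.92, adjusted p = 6.31e-04). In each of the 10 mice Clu had a higher FPKM than each of the 8 activating components of the set, and it was again highest in nAAC replicates 1 and 3.

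Among the membrane regulators 4 of 11 were tested. Cd55, which speeds the decay of C3 convertases, rose (log2 FC 0.82, adjusted p = 4.35e-04), and Cd59a, which blocks the membrane attack complex, fell, from 25.2 to 38.9 FPKM in sham to 20.7 to 25.0 in nAAC mice (log2 FC -0.40, adjusted p = 0.0296). No gene of these lists fell without nAAC replicate 1, 2, 3 or 5, without sham replicate 3, or with TPM, the Xist covariate or the epicardial and mesothelial covariate. The number that fell was 2 with median-ratio or upper-quartile scaling, no filter, GC and length trends removed, or relative to the macrophage markers. Of the receptors 6 of 10 were tested and Itgb2 (log2 FC 0.53) and Calr (0.52) rose. The anaphylatoxin receptors did not pass the test. C3ar1 measured 0.906 to 2.64 FPKM in nAAC and 1.02 to 1.97 in sham mice (adjusted p = 0.662), and C5ar1 measured 1.52 to 4.17 and 0.978 to 1.91 (log2 FC 0.46, adjusted p = 0.0889).

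**Figure D4:**
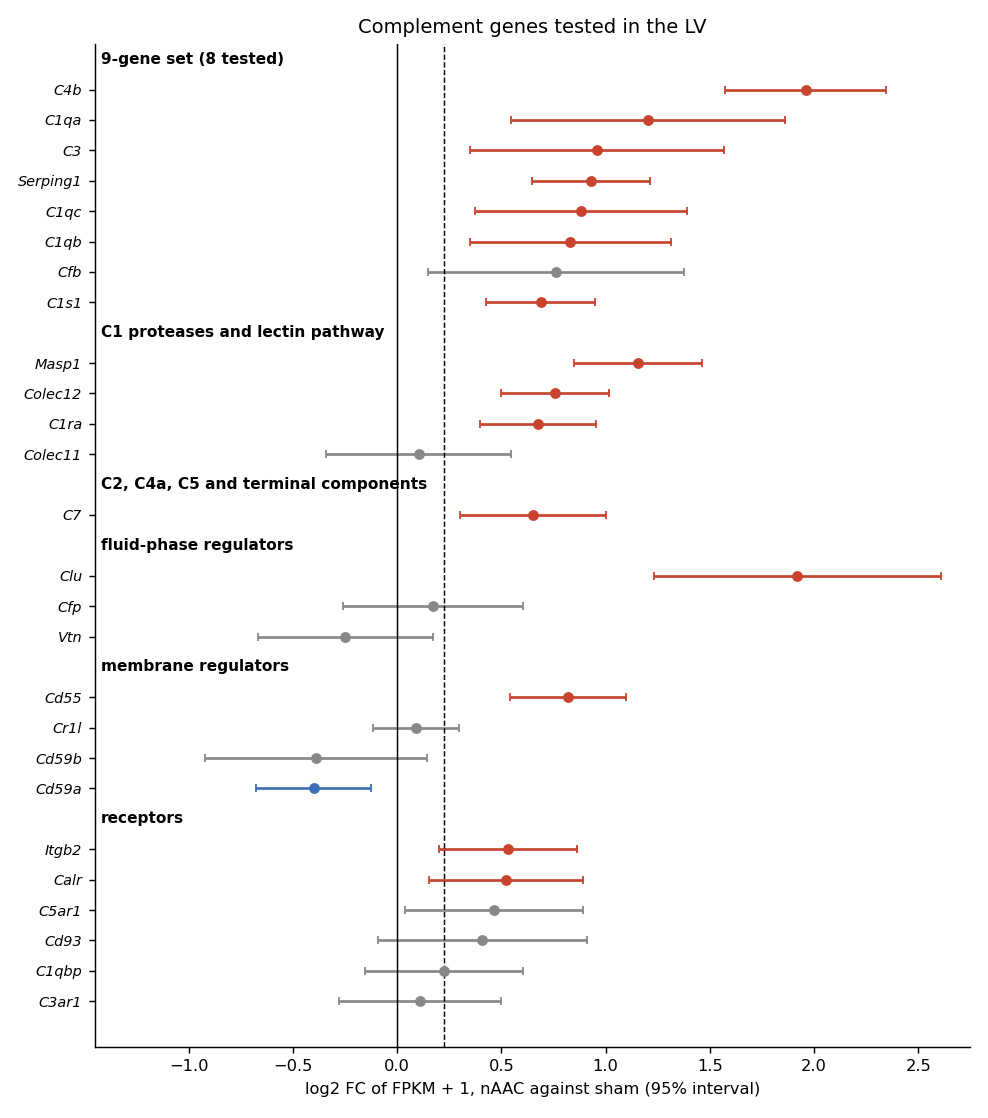
log2 FC of FPKM + 1 in nAAC against sham LV (horizontal axis) with 95% intervals for the 8 tested genes of the set and for tested genes of the other complement lists. Red genes rose and blue fell at an adjusted p below 0.05, grey genes did not pass, and the dashed line is the median of all tested genes, 0.22. C4b (1.96) and Clu (1.92) lie farthest right and Cd59a (-0.40) farthest left.

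Cytokines and transcription factors known to act on complement genes were listed for comparison, 19 in all, of which 13 were tested, 8 rose and 0 fell. The largest changes were those of Cebpd (log2 FC 0.81), Spi1 (0.74), Stat3 (0.68), Il6st (0.61) and Rela (0.61). Spi1, a transcription factor of myeloid cells, measured 3.49 ± 1.37 FPKM in nAAC and 1.63 ± 0.52 in sham mice (SD, n = 5). Stat3 carries signals of the interleukin 6 receptor, to which Il6st belongs. Irf1, a transcription factor of the interferon response, had a log2 FC of 0.08 (adjusted p = 0.704).

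Promoters of 5 of the 9 genes were matched in the RefSeq table for GRCm38.p6 (C1qb, C1qc, C1s1, C3 and Cfd). The 250 bases before the start site were searched on both strands for the interferon-stimulated response element, TTCNNNGAA (a STAT-type element), TTGCGNAA (a C/EBP-type element), GAGGAA (a PU.1-type element), TGCTGA (a MAF-type element), TATAAA and the NF-kB consensus. The promoters of C1qb and C3 are shown with their matches in capitals. They are the genes of a chain that follows the summed macrophage markers and of the component on which the pathways meet.
C1qb promoter (chr4:136886201-136886450, minus strand): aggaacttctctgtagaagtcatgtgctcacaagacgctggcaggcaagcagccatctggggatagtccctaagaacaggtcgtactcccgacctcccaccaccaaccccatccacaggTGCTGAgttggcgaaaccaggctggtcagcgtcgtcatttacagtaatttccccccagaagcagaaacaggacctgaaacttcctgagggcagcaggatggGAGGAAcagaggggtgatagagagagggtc
C3 promoter (chr17:57228137-57228386, minus strand): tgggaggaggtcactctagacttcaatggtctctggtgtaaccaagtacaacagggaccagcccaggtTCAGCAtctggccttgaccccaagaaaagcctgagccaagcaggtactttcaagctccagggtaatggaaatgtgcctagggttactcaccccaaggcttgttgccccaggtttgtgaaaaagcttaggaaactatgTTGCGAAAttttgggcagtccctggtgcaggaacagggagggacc
In C1qb the capitals are TGCTGA at -131 to -126 and GAGGAA at -30 to -25 from the start. In C3 they are TGCTGA on the reverse strand at -182 to -177 and TTGCGNAA at -45 to -38. C1qc held GAGGAA on the reverse strand at -193 to -188 and an NF-kB match at -41 to -32, and C1s1 and Cfd held none of the motifs. Of 32851 promoters of the same length, 23.3% held GAGGAA, 16.1% TGCTGA, 3.9% the NF-kB consensus and 0.67% TTGCGNAA. The interferon-stimulated response element (2.98% of all), TTCNNNGAA (7.02%) and TATAAA (12.4%) were in 0 of the 5. The motifs did not overlap each other in these promoters. These matches are descriptions of letters only.

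The genes whose pattern over the 10 mice was most like that of each complement gene were taken by the smallest root mean square difference between gene-centred log2(FPKM + 1) profiles, a measure that includes the difference between the groups. For C1qb they were Spi1 (0.140), C1qc (0.141) and Coro1a (0.174), all known from leukocytes or macrophages. For C1qc they were C1qb (0.141), Apod (0.162) and Rab4b (0.182), and for C1qa Ifi27l2a (0.250), Apod (0.253) and Pebp1 (0.268). C1s1 was nearest to Rab3d (0.0447), Esyt1 (0.0739) and Rab7b (0.0757), and Serping1 to Tnfrsf1b (0.0659), Fzd7 (0.102) and Apbb1ip (0.116). C4b was nearest to Ptgis (0.196), the prostacyclin synthase gene, Mmp23 (0.245) and Fmod (0.246), which encodes the matrix proteoglycan fibromodulin. C3 was nearest to Slc2a1 (0.239), 2200002D01Rik (0.290) and Gm5869 (0.299), and Cfb to Hmox1 (0.256), Gm43302 (0.276) and Trem2 (0.304). Cfd was nearest to 4930481A15Rik (0.249), Gm10435 (0.264) and Pnpla2 (0.265). The distances can be read against each gene's own spread, which ran from 0.376 for C1s1 to 1.02 for C4b.

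**Figure D5:**
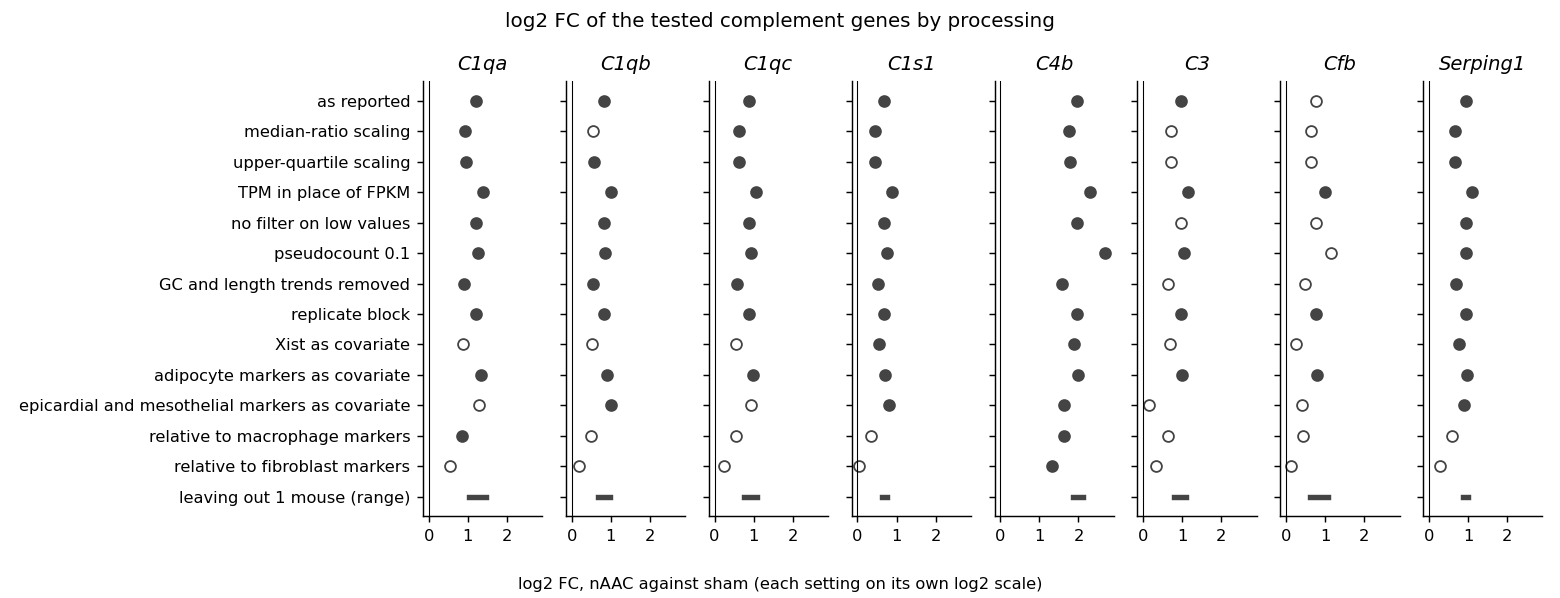
log2 FC (horizontal axes) of the 8 tested complement genes as reported and under the alternatives named on the rows. Filled points have an adjusted p below 0.05 and open points do not, and the lowest row is the range of log2 FC when 1 mouse is left out. All log2 FC are above 0, C4b is filled in every row, and C3 ranges from 0.16 with the epicardial and mesothelial covariate to 1.15 with TPM.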

How the data were processed

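LV RNA of 5 nAAC and 5 sham WT mice at 4 weeks of age was compared, with 1 library per mouse, grouped by the sample labels. The coverage deposited by the authors is the average read depth per base of a gene. The FPKM and TPM deposited by the authors are normalized for gene length and for the total of the library, and neither keeps read counts. The build in the submitters' processing notes was mm10. The table layout is that of StringTie, and the aligner, the quantifier and the use of strand are not given in the sources used here, so reads of overlapping models may be divided unevenly. FPKM is relative to the library total, so a change in abundant transcripts shifts all other genes.

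Rows sharing a gene ID were summed. The 11867 of 55401 genes whose FPKM averaged 1 or more were tested on log2(FPKM + 1), nAAC against sham, in limma 3.58.1 (R 4.3.3, trended empirical Bayes), with Benjamini-Hochberg adjustment over all of them. Such fold changes understate the change of low genes. The fit was tested on simulated data. Exact two-sided permutation tests over mice were run with SciPy 1.17.1 on Python 3.11.15, and figures were drawn with matplotlib 3.10.9. Intervals are at 95%. Transcripts, 100-base windows and gene overlaps came from GENCODE M21, in which 99.4% of 55141 shared genes had the same coordinates as in the deposited tables, among them all 9 complement genes. Promoters came from the RefSeq table for GRCm38.p6. The labels do not say whether the mice came from separate litters.

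The members and the gene lists were chosen with earlier results of these data known. Named beyond the 9 genes were the genes of the other complement and the cytokine lists that passed the test (the 5 with the largest log2 FC where more passed), C4a, C1ra, C1rb, C1s2, C2, C3ar1 and C5ar1 in any case, the 3 most similar genes per member, and up to 3 defining genes per marker list. Msln, Plin1, Adipoq and Irf1 with their values were chosen after these were seen, as were some of the other marker genes. Some genes of the lists are counted but not reported here. The alternatives tried were scaling by median ratios or upper quartiles, TPM in place of FPKM, no filter, the replicate number as a block, a pseudocount of 0.1, Xist or adipocyte markers as a covariate, values relative to the macrophage or fibroblast markers, removal of GC and length trends (loess span 0.5, 99.9% of genes), an adjusted p below 0.01 and leaving out each mouse. Epicardial and mesothelial markers as a covariate and the sums of Cfb with Gm20547 and of C4b with C4a were added after the data were seen.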

Additional observations from a re-analysis of the deposited data

Results flagged for a closer look

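Within each group of 5 mice, a mouse was marked where its gap to the nearest other mouse exceeded 0.71 of the range of the group (Dixon's criterion). Of 52 groups of values examined 5 were marked, where chance gives about 2.6 for values without ties. The groups were not independent, since the C1q ratios were made from the chains that were also examined. C4b in sham replicate 2, at 0.507 FPKM against 1.003 to 1.15 in the other sham mice, had a gap of 0.798 of the range on the log2(FPKM + 1) scale. Cfd in nAAC replicate 2, at 0.489 FPKM where the other nAAC mice were listed at 0, had a gap of 1.0 on the same scale. With the other values tied at 0, any value above 0 gives this gap, so the ties fixed the mark. The estimated depth of nAAC replicate 1, 6.82 gigabases, stood 0.796 of the range above the other nAAC libraries. The summed neutrophil markers of sham replicate 3, 14.2 FPKM, lay 0.831 of the range above the other sham mice. The summed erythroid markers of nAAC replicate 3, 8802 FPKM, lay 0.864 of the range above the other nAAC mice.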

How the results depend on the processing

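The number of complement genes called, 7 of 8, was 3 with Xist as a covariate, 2 relative to the macrophage markers, 1 relative to the fibroblast markers, 4 at an adjusted p below 0.01 and 4 with the epicardial and mesothelial covariate, and 6 to 8 when 1 mouse was left out. Over all genes 3211 rose as reported, 1593 with Xist, and 619 and 478 relative to the macrophage and fibroblast markers. The stricter threshold left 1820, the mesothelial covariate 2035, and leaving out 1 mouse 2392 to 3930. The number of DEGs among the 8 genes, 2, was 6 with TPM, 3 with a pseudocount of 0.1 and 1 with median-ratio scaling, upper-quartile scaling, Xist, either marker reference, the GC and length trends removed or the mesothelial covariate. It was 2 to 5 when 1 mouse was left out, with 5 without nAAC replicate 2 and 4 without sham replicate 4. DEGs that rose over all genes were 595 as reported, 979 with TPM and 952 with a pseudocount of 0.1. They were 371 and 377 with median-ratio and upper-quartile scaling, 494 with Xist, and 292 and 155 relative to the macrophage and fibroblast markers. With trends removed they were 337, with the mesothelial covariate 577, without nAAC replicate 2 619 and without sham replicate 4 665. The other complement genes called, 10, were 5 relative to the macrophage markers and 8 to 10 without 1 mouse. The share of all calls that were up, 85.5%, was 52.2%, 54.4% and 51.3% with median-ratio scaling, upper-quartile scaling and trends removed, and 42.7% and 7.42% relative to the macrophage and fibroblast markers.

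Calls lost, with their log2 FC, were as follows. With Xist as a covariate they were C1qa 0.88, C1qb 0.52, C1qc 0.56 and C3 0.68. Relative to the macrophage markers they were C1qb 0.49, C1qc 0.54, C1s1 0.35, C3 0.62 and Serping1 0.59. Relative to the fibroblast markers they were C1qa 0.56, C1qb 0.19, C1qc 0.24, C1s1 0.044, C3 0.32 and Serping1 0.29. With median-ratio scaling they were C1qb 0.56 and C3 0.70, with upper-quartile scaling C3 0.72, without a filter C3 0.96 and with trends removed C3 0.63. With the mesothelial covariate they were C1qa 1.29, C1qc 0.94 and C3 0.16, and the stricter threshold dropped C1qb (0.83), C1qc (0.88) and C3 (0.96) by its construction. Cfb was called with TPM (0.997), the adipocyte covariate (0.80) and its sum with Gm20547 (0.91). With Xist as a covariate its log2 FC was 0.24 and it was not called. Except where the construction shows it, the cause was not tested. C4b was called in all settings.

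With 1 mouse left out the log2 FC ran from 1.03 to 1.48 for C1qa, 0.68 to 0.99 for C1qb, 0.75 to 1.08 for C1qc, 0.62 to 0.75 for C1s1, 0.77 to 1.08 for C3, 1.87 to 2.12 for C4b, 0.61 to 1.08 for Cfb, 0.87 to 1.001 for Serping1 and -0.85 to -0.44 for Cfd. The log2 difference of the C1qc to C1qb ratio, 0.07, ran from -0.021 to 0.11 and turned sign without sham replicate 2.

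The deviations of same-numbered mice correlated above 0.1 in 1 of 5 pairs, and no nAAC mouse correlated best with the sham mouse of its number. This gives no sign that the numbers pair the mice, but it cannot exclude a pairing, and the labels do not name one. With the replicate number as a block, 8 complement genes were called, Cfb among them (log2 FC 0.76, adjusted p = 0.0425), and over all tested genes 2929 rose and 497 fell in place of 3211 and 546. The SE of C1qa, C1qb and C1qc was then 0.16, 0.13 and 0.13 in place of 0.30, 0.22 and 0.24. That of C1s1 was slightly larger, 0.129 in place of 0.121. Depth limits Cfd, C1s2, C4a and other genes below an FPKM of 1, whose values rest on few reads.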
